A study of Mus musculus with 8 samples.

Results

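The genes described here are 9 members of the Notch receptor and sheddase machinery, as transcripts in naive CD8+ T cells of mice labelled Furin KO or WT, where FURIN is the protease that matures many of their products. They are the receptors Notch1, Notch2 and Notch3, the membrane proteases Adam8, Adam9, Adam10, Adam15 and Adam17, and the gamma-secretase subunit Ncstn. They were listed by gene name, with earlier results of these data known, and were found by symbol as 9 of the 55573 gene IDs in the count table. 8 of the 9 passed the filter on low counts and were among the 12500 genes tested, and Notch3 had no count in any library.

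Naive CD8+ T cells are resting lymphocytes of the cytotoxic lineage before any contact with antigen. RNA was sequenced from such cells of male C57BL/6 mice, 5 libraries labelled Furin KO (1 from mice of 7 weeks, 4 from mice of 8 weeks) and 3 labelled WT (1 of 7 weeks, 2 of 8 weeks). Spleen and lymph nodes were the source, and a CD8a isolation kit preceded the sort on a flow cytometer. Which part of Furin was removed, in which cells and by which allele is not given in the sources used here, nor whether the libraries are from separate mice. The p-values therefore measure only the spread among these 8 libraries, part of which may be technical.

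Notch receptors are single-pass surface proteins that are cut several times on their way to becoming transcription regulators. FURIN cleaves the precursor in the Golgi, a ligand on a neighbouring cell then exposes the receptor to ADAM10, and gamma-secretase, of which nicastrin (Ncstn) is the large outer subunit, releases the intracellular part that joins RBPJ and MAML proteins in the nucleus. The ADAM proteases are themselves made as inactive precursors. FURIN or a related convertase removes the prodomain of most of them, while ADAM8 removes its own. These steps act on proteins, and the counts below measure transcripts only.

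The coding sequences are shown first because they carry the feature that ties these genes to FURIN. FURIN cleaves after a run of arginine, any residue, lysine or arginine, and arginine. In the longest complete coding sequence of each gene (GENCODE M21, GRCm38), codons for such a run occurred in 7 of the 9 members, all but Notch2 and Ncstn, and in 24.2% of 21526 mouse coding sequences. The ADAM members were picked as proteases that FURIN matures, and lengths were not matched, so setting these shares side by side is no test. The 5 stretches below are from members with counts. They have the run where FURIN is known to cut (Notch1, Adam10 and Adam17) or at a like position before the catalytic zinc site (Adam9 and Adam15). Each is printed 5′ to 3′ on the coding strand, with the 12 bases of the run in capitals.
Notch1: agtggtgggCGCCAGCGCAGGgagctggac
Adam10: gagctcctgAGGAAAAAACGCacaactctg
Adam17: tttgttcgtCGAGTGAAGAGAcgagctgaa
Adam9: cagctgctgCGCAGAAGAAGAgctgttcta
Adam15: cacgctcacAGGCTTAAGCGAgatgtagta

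The run in Notch1 covers codons 1651 to 1654 of 2531, in the outer part of the receptor. In Adam10 it covers codons 211 to 214 of 749 and in Adam17 codons 211 to 214 of 846. In Adam9 it covers codons 202 to 205 of 863, and in Adam15 codons 204 to 207 of 864. In the 4 proteases the run ends 142 to 210 codons before the zinc-binding site of metalloproteases, histidine, glutamate, any 2 residues and histidine. Codons for that site occurred once in each of the 5 ADAM members, in none of the Notch receptors and Ncstn, and in 3.26% of all coding sequences. As the ADAM members were picked as proteases, this too is no test. Adam8 had a single match to the FURIN run, at codons 39 to 42. Notch1 had 2 matches, Adam10 and Adam9 3 each, Adam15 2, Adam17 1 and Notch3 6. Notch3 had no count and is not printed, though its match at codons 1569 to 1572 is followed by gagctg, like the printed match of Notch1. The remaining matches of these genes are not described here. A match is a description of the letters and says nothing about cleavage in these cells.

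The libraries held 11308220 to 21040431 counts in Furin KO and 14463450 to 19159021 in WT. Furin itself, the targeted gene, had 63.5, 86.4, 62.2, 58.0 and 76.6 CPM (counts scaled to library size) in Furin KO replicates 1 to 5, against 57.0, 66.8 and 66.9 CPM in WT replicates 1 to 3. The groups overlapped, and the lowest value of the 8 was in WT (log2 fold change 0.12, 95% interval -0.15 to 0.40; exact two-sided permutation p = 0.5, n = 5 and 3). Counts over the whole gene do not check the labels where only part of it is removed, and Furin KO and WT below mean the libraries so labelled. The 10 markers of naive CD8 T cells summed to 11448 to 13124 CPM in Furin KO and 11073 to 12772 CPM in WT. The 5 markers of CD4 and regulatory T cells, led by Izumo1r, summed to 55.3 to 72.7 CPM in Furin KO and 37.9 to 52.1 CPM in WT, without overlap. Izumo1r alone had 44.7 to 66.6 CPM in Furin KO and 31.0 to 47.7 CPM in WT, with overlap. Ctla4 also had the higher mean in Furin KO (5.21 CPM, against 2.02 CPM in WT). It had 3.59 to 8.15 CPM in Furin KO and 0.365 to 3.57 CPM in WT, without overlap by a narrow margin. The groups did not overlap at 2.9% of all genes tested. Cd4 (0.119 against 0.316 CPM), Foxp3 (1.07 against 2.06 CPM) and Zbtb7b (0.0749 against 0.280 CPM) had the lower mean in Furin KO, each with overlap. None of the 5 markers was at 0 in all libraries, 0 of the 3 tested passed, and their part in the results below was not tested. The 7 B cell markers summed to 664 to 833 CPM in Furin KO and 640.1 to 858 CPM in WT, of which Ighm alone made up 631 to 800.3 CPM in Furin KO and 614 to 829.3 CPM in WT, while Ms4a1 and Cr2 had no count in any library. The 7 myeloid markers, led by Cd68, summed to 4.79 to 13.0 CPM in Furin KO and 4.70 to 12.6 CPM in WT, with Csf1r, Adgre1, S100a8 and S100a9 at 0. The 4 NK cell markers, led by Eomes, summed to 33.6 to 51.7 CPM in Furin KO and 39.5 to 40.4 CPM in WT, with Ncr1 at 0. These 3 sums overlapped between the groups. The early response gene Fos had 204 and 85.8 CPM in Furin KO replicates 2 and 3 and 144 CPM in WT replicate 2, whose titles run consecutively (S3 to S5), and between 801 and 1075 CPM in the other 5. Of all 12500 genes, 4 (0.032%) passed at an adjusted p under 0.05, 3 higher and 1 lower in Furin KO.

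Levels between genes are compared as TPM, a unit that divides counts by exon length and scales each library to the same sum. In bulk RNA, fewer cells of a type and less RNA per cell cannot be told apart. Ncstn stood highest, at 126 ± 6.68 TPM in Furin KO (n = 5) and 121 ± 10.97 TPM in WT (n = 3). Adam10 had 105 ± 10.6 TPM in Furin KO and 94.9 ± 18.8 TPM in WT. Notch1 had 98.3 ± 7.60 TPM in Furin KO and 99.9 ± 17.5 TPM in WT. These 3 genes, a receptor, its sheddase and a subunit of its intramembrane protease, thus lay close together in TPM. This depends on the lengths used, all annotated exons joined, which were 14232 bases for Notch1, 4913 for Adam10 and 3975 for Ncstn. The same lengths serve every library, so the order across libraries does not test them. Adam17 had 40.3 ± 4.96 TPM in Furin KO and 40.3 ± 9.11 TPM in WT. Notch2 had 24.6 ± 2.21 TPM in Furin KO and 26.2 ± 0.502 TPM in WT. The lowest were Adam9 (5.73 ± 0.948 TPM in Furin KO and 8.54 ± 1.62 TPM in WT), Adam8 (1.96 ± 0.911 TPM in Furin KO and 1.96 ± 0.760 TPM in WT) and Adam15 (0.994 ± 0.469 TPM in Furin KO and 1.73 ± 0.112 TPM in WT).

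The order was stable across libraries except at neighbours with like levels. Ncstn lay above Adam10 in 8 of 8 libraries, Notch1 above Adam17, Adam17 above Notch2, Notch2 above Adam9 and Adam9 above Adam8 likewise in 8 of 8. Adam10 lay above Notch1 in 4 of 8, so these 2 could not be ordered. Adam8 lay above Adam15 in 6 of 8. Of the summed TPM of the 4 Notch receptors, Notch1 made up 79.8% ± 1.504 in Furin KO (n = 5) and 78.8% ± 2.70 in WT (n = 3). Notch2 made up 20.004% ± 1.49 in Furin KO and 20.97% ± 2.76 in WT.

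**Figure D1:**
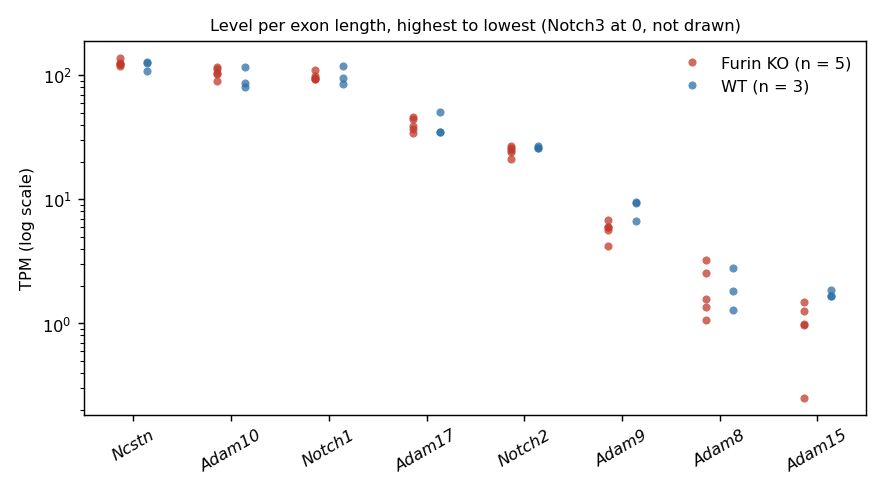
Level of each member per exon length (TPM, log axis) in every library, ordered by mean, with the 5 Furin KO libraries in red left of the 3 WT libraries in blue. Ncstn, Adam10 and Notch1 lie near 100 TPM, Adam17 and Notch2 below them, and Adam9, Adam8 and Adam15 under 10 TPM. Notch3, at 0 counts, is not drawn.

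None of the 8 tested members passed the comparison of Furin KO with WT. With the quasi-likelihood test of edgeR, adjusted after Benjamini and Hochberg over 12500 genes, p was 0.9998 for each of the 8. 1 of them, Adam9, had an unadjusted p under 0.05, against 3.21% of all genes tested (401 genes) and 1.6% with Furin KO lower (200 genes), and DESeq2 and limma-voom also called 0 of the 8. The fold changes were above 0 for 4 members and below 0 for 4, with a median log2 fold change of -0.00, the same as over all genes tested (-0.00). The members were named with earlier results of these data known.

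**Figure D2:**
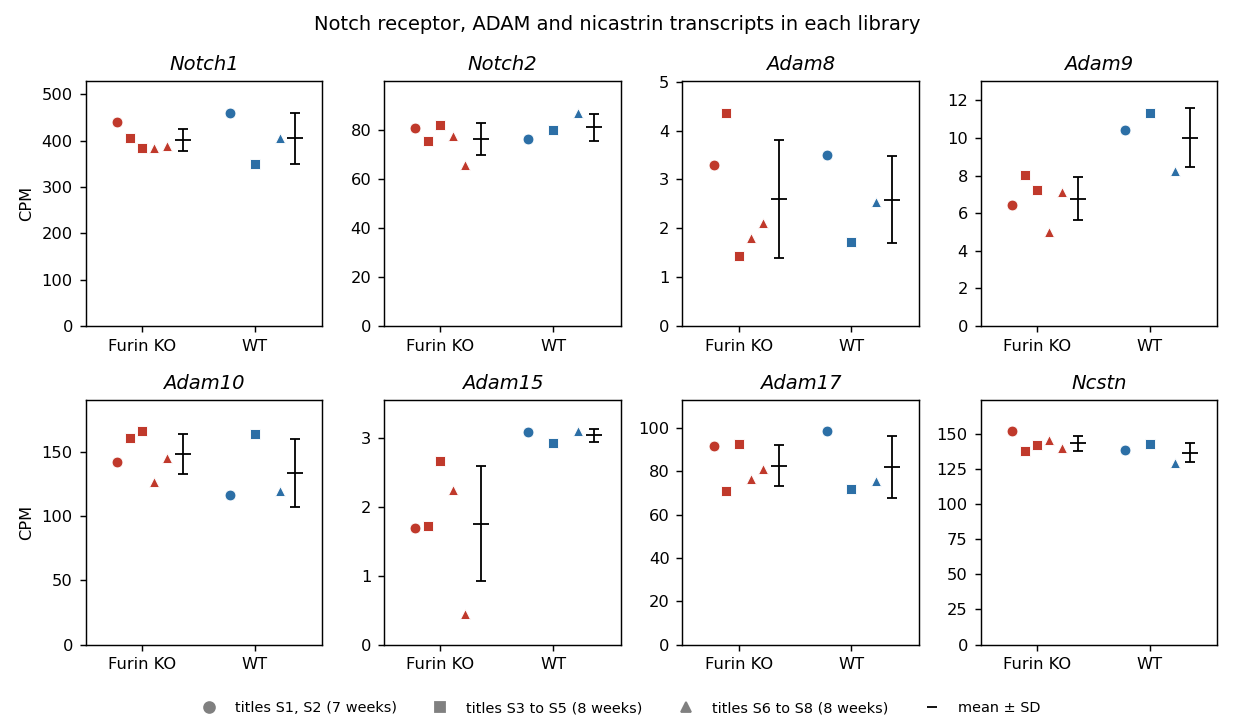
CPM of the 8 tested members in every library, Furin KO (red, n = 5) left of WT (blue, n = 3), each axis starting at 0. Symbols give the run of consecutive sample titles, and black bars the mean ± SD. In 6 panels the groups overlap, and in those of Adam9 and Adam15 every Furin KO library lies below every WT library.

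Notch1 (ENSMUSG00000026923; GRCm38 chromosome 2, 26457903 to 26516663, minus strand), the main Notch receptor of T cells and their precursors, overlapped between the groups. It had 441, 406, 384, 384 and 389 CPM in Furin KO replicates 1 to 5, against 459.7, 350.3 and 405 CPM in WT replicates 1 to 3. The 2 libraries from mice of 7 weeks were the highest of their groups, and WT replicate 2 was the lowest of all. The means were 401 ± 24.3 CPM in Furin KO (n = 5) and 405 ± 54.7 CPM in WT (n = 3), with a log2 fold change of -0.01 (95% interval -0.22 to 0.19; exact two-sided permutation p = 0.964, of which the smallest possible with 56 arrangements is 0.0179). The sign of this difference turned with small changes of the fit, and the interval spans folds of 0.859 to 1.14. The opposite-strand gene 0610009E02Rik shares 1068 exon bases with Notch1 and had 36 counts in all.

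Notch2 (ENSMUSG00000027878; chromosome 3, 98013527 to 98150361, plus strand), the receptor best known for its part in marginal zone B cells and also present on CD8+ T cells, likewise overlapped between groups. It had 80.5, 75.4, 82.0, 77.6 and 65.4 CPM in the Furin KO libraries and 76.0, 79.8 and 86.7 CPM in WT. Furin KO replicate 5, the library with the lowest total count, was the lowest and WT replicate 3 the highest. The log2 fold change of Furin KO over WT was -0.09, with a 95% interval from -0.30 to 0.13 (n = 5 and 3; p = 0.411 by the exact permutation test, two-sided).

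Notch3 (ENSMUSG00000038146; chromosome 17, 32120820 to 32166852, minus strand), a receptor that is itself switched on by Notch signalling in early thymocytes, had 0 counts of 144320747 in the 8 libraries, which allows a level of up to 0.0208 CPM (3 counts over all libraries, counting error only). No fold is given for it. Notch4, the remaining receptor and no member, had 102 counts in all libraries together and a log2 fold change of -0.27 with a 95% interval from -1.99 to 1.45.

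Among the proteases, Adam10 (ENSMUSG00000054693; chromosome 9, 70678997 to 70780229, plus strand), the protease that cuts ligand-bound Notch, was the most abundant ADAM member, with 68.2% ± 2.28 of the summed TPM of the 5 in Furin KO (n = 5) and 64.2% ± 6.78 in WT (n = 3). Its values were 142, 161, 166, 127 and 145 CPM in the Furin KO libraries and 116, 164 and 119.8 CPM in WT. The 3 highest of the 8 values, 161 to 166 CPM, belonged to Furin KO replicates 2 and 3 and WT replicate 2, the libraries of titles S3 to S5 that were low in Fos, while the other 5 lay between 116 and 145 CPM. With the title run as a factor, edgeR gave Adam10 a log2 fold change of 0.14 (unadjusted p = 0.0937, adjusted p = 0.923).

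Without a factor, Adam10 had a log2 fold change of 0.15, with a 95% interval from -0.11 to 0.41 (n = 5 and 3; p = 0.286 by the exact permutation test, two-sided). Its size rested on single WT libraries. Without WT replicate 2 the value was 0.33, with an unadjusted p of 0.0156 that did not pass adjustment (edgeR adjusted p = 0.9998, and 0.868 to 0.99999 over the 18 alternatives). Without WT replicate 1 it was 0.07 and without WT replicate 3 0.08. Within the 3 title runs, the Furin KO mean and the WT value were 142 and 116 CPM (S1 and S2, n = 1 and 1), 163 and 164 CPM (S3 to S5, n = 2 and 1) and 136 and 119.8 CPM (S6 to S8, n = 2 and 1).

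Adam17 (ENSMUSG00000052593; chromosome 12, 21323509 to 21373632, minus strand), the sheddase of tumour necrosis factor, had 91.8, 70.9, 92.5, 76.6 and 80.9 CPM in the Furin KO libraries and 98.4, 72.0 and 75.5 CPM in WT. The 2 libraries of 7 weeks and Furin KO replicate 3 were the highest, and the groups overlapped. The means of 82.5 ± 9.44 CPM in Furin KO (n = 5) and 81.9 ± 14.3 CPM in WT (n = 3) gave a log2 fold change of 0.01 (95% interval -0.25 to 0.27). The gene Iah1 shares 311 exon bases with Adam17 on the opposite strand, and the strand setting of the counting is not given in the sources used here. Iah1 itself was at 15.3 to 21.3 CPM in Furin KO and 13.7 to 23.0 CPM in WT.

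Adam9 (ENSMUSG00000031555; chromosome 8, 24949611 to 25016927, minus strand), a widely expressed membrane protease, was the member with the lowest p. It had 6.45, 8.05, 7.21, 5.00 and 7.12 CPM in the Furin KO libraries, against 10.4, 11.3 and 8.26 CPM in WT. All 5 Furin KO libraries lay below all 3 WT libraries, by a narrow margin of 8.05 CPM in Furin KO replicate 2 and 8.26 CPM in WT replicate 3, and in TPM these 2 libraries change places (6.76 and 6.67 TPM). The means were 6.77 ± 1.14 CPM in Furin KO (n = 5) and 10.01 ± 1.57 CPM in WT (n = 3), with a log2 fold change of -0.57 (95% interval -1.04 to -0.09, edgeR unadjusted p = 0.0219).

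This did not pass adjustment (edgeR adjusted p = 0.9998). The exact two-sided permutation p of Adam9, 0.0179, is the smallest possible with 56 arrangements. These shuffle all 8 libraries and take no account of age or title run. Across the 18 alternatives run the log2 fold change of Adam9 lay between -0.68 and -0.47, with an unadjusted p of 0.0160 to 0.0982 and an adjusted p of at least 0.719. Since the groups did not overlap in CPM, Adam9 had to be lower in Furin KO in each title run, and the runs are no separate test. The Furin KO mean and the WT value were 6.45 against 10.4 CPM (n = 1 and 1), 7.63 against 11.3 CPM (n = 2 and 1) and 6.06 against 8.26 CPM (n = 2 and 1). The gene rests on 81 to 217 counts per library.

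Adam15 (ENSMUSG00000028041; chromosome 3, 89338542 to 89349996, minus strand), a membrane protease that also binds integrins, was the lowest tested member. It had 1.70, 1.72, 2.67, 2.24 and 0.439 CPM in the Furin KO libraries, which is 35, 36, 50, 47 and 5 counts. The WT libraries had 3.09, 2.92 and 3.09 CPM, which is 45, 56 and 55 counts. The groups did not overlap, and Furin KO replicate 5, with 5 counts, stood lowest. The log2 fold change of -0.77 had a wide interval (95% interval -1.81 to 0.27; edgeR unadjusted p = 0.137; exact two-sided permutation p = 0.0714, n = 5 and 3), and without Furin KO replicate 5 it was -0.54. An annotated antisense gene, 4731419I09Rik, shares 1263 exon bases with Adam15 and had 0 counts.

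Adam9 and Adam15 were thus the 2 of 8 tested members whose groups did not overlap, both lower in Furin KO. Over all genes tested, the groups did not overlap at 2.9% (363 genes), and did so with Furin KO lower at 1.59% (199 genes). Both genes are low, and their share of the summed TPM of the 5 ADAM members was 3.71% ± 0.435 in Furin KO against 5.76% ± 0.439 in WT for Adam9, and 0.646% ± 0.308 in Furin KO against 1.18% ± 0.160 in WT for Adam15 (SD, n = 5 and 3). Neither gene passed.

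Adam8 (ENSMUSG00000025473; chromosome 7, 139978932 to 139992562, minus strand), a protease of leukocytes that is induced on activation, varied widely among libraries of the same group, with a coefficient of variation of 39.5% over the 8 libraries, close to the 41.1% of Adam15. It had 3.30, 4.36, 1.44, 1.81 and 2.11 CPM in Furin KO and 3.50, 1.72 and 2.53 CPM in WT, from 24 to 91 counts. The highest and the lowest of the 8 values were both in Furin KO libraries of the same title run, replicates 2 and 3. The log2 fold change of 0.02 had a 95% interval from -0.95 to 0.997, which spans folds of 0.516 to 1.996.

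Ncstn (ENSMUSG00000003458; chromosome 1, 172066013 to 172082795, minus strand), the nicastrin subunit of gamma-secretase, was the steadiest member, with a coefficient of variation of 4.64% over the 8 libraries. It had 152, 138, 143, 146 and 139.8 CPM in Furin KO and 138, 143 and 129 CPM in WT. The groups overlapped, with WT replicate 3 the lowest. The log2 fold change of Furin KO over WT was 0.07, with a 95% interval from -0.12 to 0.25 (n = 5 and 3; p = 0.196 by the exact permutation test, two-sided). The gene Copa, at 308 to 331 CPM in Furin KO and 324 to 332 CPM in WT, shares 195 exon bases with it on the opposite strand.

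**Figure D3:**
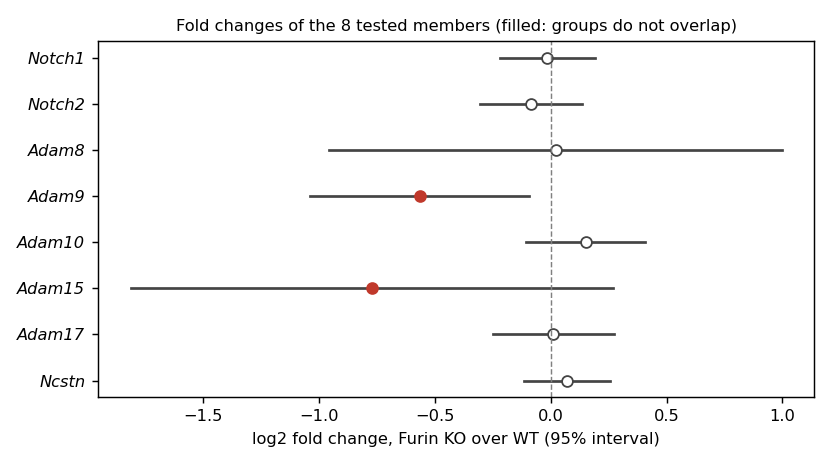
Log2 fold change of each tested member, Furin KO over WT, with its 95% interval from the quasi-likelihood fit. The intervals of Notch1, Notch2, Adam10, Adam17 and Ncstn lie within -0.30 to 0.41, those of Adam8 and Adam15 are wide, and that of Adam9 lies below 0. Filled points mark genes whose groups do not overlap.

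The members differed in how they varied across the 8 libraries. Over all pairs of tested members, Pearson's r of log2(CPM + 1) lay between -0.58, for Notch1 with Adam10, and 0.84, for Notch2 with Adam15. Both are descriptions over 8 libraries that share title runs, and no p is given. Among 8880 or 8881 genes (the member itself left out) with a mean of at least 5 CPM and an established symbol, those with a pattern most like Notch1 were Kin (r = 0.96) and Btaf1 (r = 0.94). Most like Notch2 were Twsg1 (0.97) and Hook1 (0.94), most like Adam10 were Icmt (0.97) and Ndrg3 (0.96), and most like Adam17 were Fam199x (0.97) and Pmaip1 (0.96). For Ncstn these were Rpl5 (0.96) and Mre11a (0.95), for Adam8 Xpot (0.95) and Zfp738 (0.93), for Adam9 Ppif (0.93) and Itpkb (0.92), and for Adam15 Dand5 (0.95) and Atf1 (0.95). With so many genes searched over 8 libraries, values of this size are a description of the closest patterns.

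The rest of the pathway was then counted over lists of 107 genes in all, of which 73 were tested. 0 of the 73 passed by edgeR, and DESeq2 and limma-voom also called 0. 6 had an unadjusted p under 0.05 (8.22%, against 3.21% of all genes tested), namely Adam9, Adam19, Dtx1, Dtx4, Il7r and Pcsk1. 32 had fold changes above 0 and 41 below 0, with a median log2 fold change of -0.01. The groups did not overlap at 4 of the 73 (5.48%, against 2.9% of all genes tested), namely Adam9, Adam15, Rbpj and Reck.

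Few genes for Notch ligands were detected. Dll1, Dll3 and Jag1 had no count, Dll4 had 14 counts in all, and Jag2 was the only ligand tested, at 9.98 ± 3.17 CPM in Furin KO (n = 5) and 12.1 ± 3.25 CPM in WT (n = 3) with a log2 fold change of -0.27, and -0.48 to -0.12 with 1 library left out. The enzymes that add sugars to the receptor were all present. Lfng, the lunatic fringe enzyme that tunes which ligand Notch answers to, was the highest of the 6, at 394 TPM over the 8 libraries, with a log2 fold change of -0.01. Poglut1, a glucosyltransferase, had the largest of the list at 0.20, and 3 of the 6 were above 0 and 3 below.

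Of 9 listed membrane ADAM proteases, 6 were tested and Adam12, Adam28 and Adam33 had no count. The tested gene of this list that is no member, Adam19, was among the highest at 78.6 TPM. It had 184, 149, 131, 153 and 128 CPM in Furin KO and 177, 197 and 161 CPM in WT, and the groups overlapped through Furin KO replicate 1. Its log2 fold change was -0.26 (95% interval -0.50 to -0.01; edgeR unadjusted p = 0.0396, adjusted p = 0.9998), and without the libraries of titles S3 to S5 it was -0.12. The antisense gene Gm16033 shares 587 exon bases with it. Of the catalytically inactive relatives Adam11, Adam22 and Adam23, Adam11 alone had counts, 6 in all, all in WT replicate 2.

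The partners and inhibitors of the proteases gave 0 of 8 tested genes past the threshold, 1 above and 7 below 0, with a median of -0.13. Of the tetraspanins that escort ADAM10, Tspan14 and Tspan5 were tested and Tspan10, Tspan15 and Tspan17 had no count, and Tspan33 had 10 counts in all. Frmd8, a partner of the ADAM17 escort proteins, was the highest of the list at 177 TPM, with a log2 fold change of -0.07. Rhbdf1, an escort of ADAM17, had the largest at -0.98 (95% interval -3.48 to 1.53), on 60 counts in all. This value was -2.28 by limma-voom and -0.15 without WT replicate 3, and ranged from -1.34 to -0.15 with 1 library left out, where it could be tested. Reck, a membrane-bound protease inhibitor named after its values were seen, had 22.3 ± 1.1496 CPM in Furin KO (n = 5) and 26.3 ± 1.06 CPM in WT (n = 3). Its groups did not overlap, and it did not pass (log2 fold change -0.24, edgeR unadjusted p = 0.0844).

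In gamma-secretase, 5 of 7 genes were tested, 3 above and 2 below 0, and 0 passed. Psen2, a catalytic subunit, had a log2 fold change of -0.07. The small subunit Psenen had one of 0.10, with an interval from -0.89 to 1.09 on 420 counts in all. Aph1a was tested, while Aph1b and Aph1c had 14 and 8 counts in all.

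The nuclear proteins of Notch signalling gave 0 of 10 tested genes past the threshold, 4 above and 6 below 0. Rbpj, the DNA-binding partner of Notch, had 16.9, 15.6, 19.8, 17.4 and 18.7 CPM in Furin KO and 20.1, 20.2 and 20.6 CPM in WT. The groups did not overlap, by 19.8 against 20.1 CPM, and the log2 fold change was -0.20 (95% interval -0.50 to 0.11; edgeR unadjusted p = 0.187). GENCODE M21 annotates processed pseudogenes of Rbpj, and how reads shared with them were counted is not given in the sources used here. Kat2a, an acetyltransferase and the highest of the list at 158 TPM, had a log2 fold change of 0.01. Regulators and turnover factors gave 0 of 13, 7 above and 6 below 0, and Neurl3, the highest of them, was at 190.4 TPM with -0.09. Dtx4, an ubiquitin ligase of the Deltex family, had the largest, with 28.5, 55.3, 31.9, 31.2 and 19.8 CPM in Furin KO and 14.001, 20.3 and 22.3 CPM in WT. The groups overlapped at Furin KO replicate 5, and the log2 fold change of 0.82 (95% interval 0.30 to 1.35; edgeR unadjusted p = 0.00398) had an adjusted p of 0.9998 and passed only without the filter on low counts (edgeR adjusted p = 0.000484, and up to 0.99999 under the other alternatives).

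Many textbook targets of Notch were near or at 0 in these resting cells. Of 14 listed, 8 did not pass the filter, among them Hes1 with 5 counts and Hes5 with 19 in all libraries together, and Hey2 with none. Of the 6 tested, 2 were above and 4 below 0, with a median of -0.44 (-0.00 over all genes tested), and 0 passed. This median leans on low genes. Hey1, Nrarp and Il2ra had 153, 454 and 87 counts in all and log2 fold changes of -1.02, -0.60 and -0.56. The more abundant Dtx1, Gata3 and Myc had -0.32, 0.01 and 0.33. Dtx1, a Deltex ubiquitin ligase induced by Notch in T cells, was the highest at 397 TPM. It had 504, 708, 521, 504 and 510.1 CPM in Furin KO and 642, 730.4 and 683 CPM in WT. 4 Furin KO libraries lay below all WT libraries and Furin KO replicate 2 lay among them, and the log2 fold change was -0.32 (95% interval -0.55 to -0.09; edgeR unadjusted p = 0.0101, adjusted p = 0.9998; exact two-sided permutation p = 0.125).

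Hey1, a transcriptional repressor, had the largest change of the list at -1.02 on 153 counts in all (95% interval -2.51 to 0.47), and -1.54 to -0.79 with 1 library left out. Nrarp, which feeds back on Notch, had 2.57 ± 0.995 CPM in Furin KO (n = 5) and 3.91 ± 0.748 CPM in WT (n = 3). Myc, a growth regulator named after its values were seen, had 308 ± 79.4 CPM in Furin KO and 245 ± 30.3 CPM in WT, which did not pass (log2 fold change 0.33, edgeR unadjusted p = 0.0777). Furin KO replicate 3 was its lowest library, at 170.3 CPM, and without the libraries of titles S3 to S5 Myc had 0.63 and passed (edgeR adjusted p = 0.0499, and up to 0.99999 under the other alternatives).

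Of 15 surface proteins that ADAM10 or ADAM17 can shed in T cells, 11 were tested, 6 above and 5 below 0, and 0 passed. Il7r, the interleukin-7 receptor, had 559 ± 66.9 CPM in Furin KO (n = 5) and 686 ± 95.2 CPM in WT (n = 3), a log2 fold change of -0.29 (edgeR unadjusted p = 0.0145, adjusted p = 0.9998). Its groups overlapped (exact two-sided permutation p = 0.0714). Cd44, an adhesion receptor that is high on antigen-experienced T cells, had the largest at 0.96 (95% interval -0.55 to 2.48) on 189 counts in all. It was 2.24 without WT replicate 1 (edgeR unadjusted p = 0.0175, adjusted p at least 0.868 under each of the 18 alternatives), 0.55 without WT replicate 2 and 0.61 without WT replicate 3. Shedding itself is not seen in transcript counts.

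Of 9 proprotein convertases, the family of FURIN, 5 were tested, 3 above and 2 below 0, and 0 passed. Mbtps1, the site-1 protease, was the highest at 94.9 TPM, with a log2 fold change of -0.04. Pcsk1, a convertase of secretory granules, had 7.46 ± 1.65 CPM in Furin KO (n = 5) and 11.3 ± 3.10 CPM in WT (n = 3), a log2 fold change of -0.59 (edgeR unadjusted p = 0.0252, adjusted p = 0.9998). Its groups overlapped (exact two-sided permutation p = 0.0893).

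**Figure D4:**
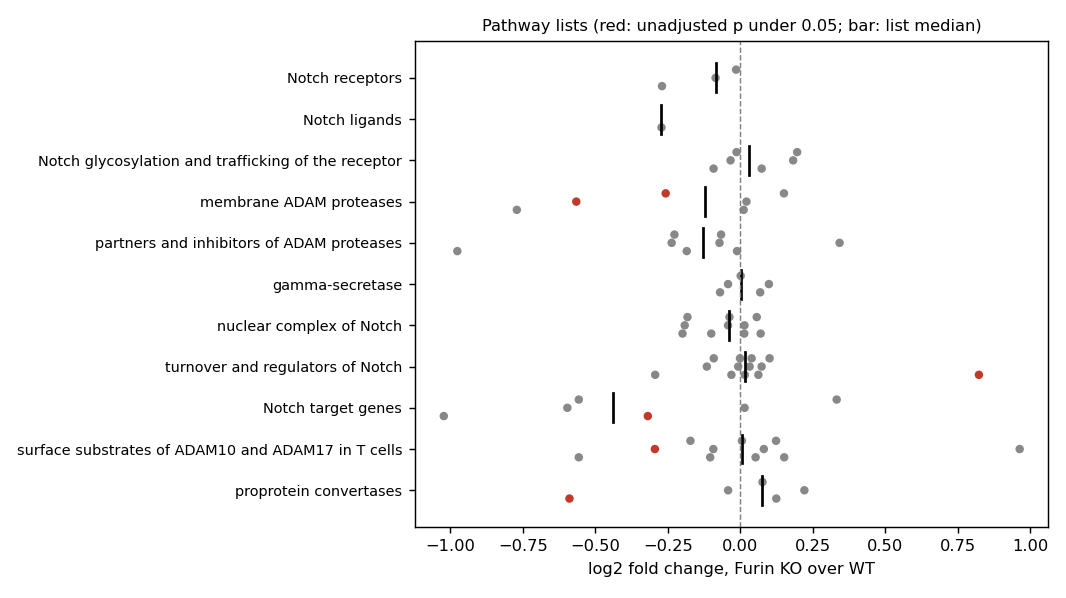
Log2 fold change, Furin KO over WT, of every tested gene of the Notch and sheddase lists, with a black bar at the median of each list. Red points mark the 6 genes with an unadjusted p under 0.05, of which 0 passed adjustment over all genes; Il2ra stands in both the target and the substrate list.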

How the data were processed

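RNA of naive CD8+ T cells was sequenced in 8 samples, 5 Furin KO and 3 WT. The values are raw read counts per Ensembl gene, in whole numbers, as deposited. The submitters' processing notes name FastQC, Trim Galore, STAR, DESeq2 1.24.0 and the build GRCm38. How reads were counted, with which annotation and strand setting, is not given in the sources used here. Columns were matched to samples by title, and genotype came from the labels. Symbols, coordinates and exon lengths came from GENCODE M21 (GRCm38), which held 55480 of 55573 IDs.

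The counts were fitted in R 4.3.3 with edgeR 4.0.16 (limma 3.58.1 beneath it), using TMM factors, filterByExpr and a two-sided quasi-likelihood test of genotype without covariates. P-values were adjusted by Benjamini-Hochberg over 12500 genes, with a threshold of 0.05. CPM use TMM-scaled library sizes and TPM union exon lengths. Library totals of 11308220 to 21040431 limit the precision. Single genes were also given an exact permutation test on log2(CPM + 1) over all arrangements of the 8 libraries, which takes no account of age or title run. The fit was tested on simulated data. Each pair of libraries differed by more than sampling noise (chi-square per degree of freedom at least 8.94).

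Named genes were the members, Furin, from each list the genes with an unadjusted p under 0.05, the highest per length and the largest fold change, and the 2 genes most like each member by Pearson's r; other genes given with values were chosen after these were seen. Some genes that the rule names are left out here. The members and lists were chosen with earlier results of these data known. The run of sample titles (S1 and S2, S3 to S5, S6 to S8) is no labelled batch. Motifs were planned for proteins and were read as codons instead. Alternatives were RLE or no size factors, other filters, DESeq2 1.42.0, limma-voom, age or title run as a factor, the 8-week libraries, each library left out and, chosen after seeing the data, titles S3 to S5 left out.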

Additional observations from a re-analysis of the deposited data

Results flagged for a closer look

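In 2 of 30 genes checked among the 5 Furin KO libraries, 1 library stood far from the other 4 (Dixon's criterion, which flags about 1.5 of 30 by chance). Dtx1 was at 708 CPM in Furin KO replicate 2, against 504 to 521 CPM in the other 4 Furin KO libraries. Myc was at 170.3 CPM in Furin KO replicate 3, against 312 to 362 CPM in the other 4. None of the 8 tested members was among them.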

How the results depend on the processing

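No paired analysis was possible because the replicate numbers follow accession order and pair no libraries; the closest fit is the one with the title run as a factor, since each run holds 1 WT library and 1 or 2 Furin KO libraries. The count of members past the threshold was 0 under all 18 alternatives. Over all genes, 4 passed, against 38 without the filter on low counts, 15 by DESeq2, 12 with the title run as a factor and 8 without titles S3 to S5, and 3 to 5 with 1 library left out. Of the 73 list genes 0 passed, against 1 without the filter (Dtx4) and 1 without titles S3 to S5 (Myc). The cause was not tested.

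Of 144 refitted log2 fold changes of members, 129 kept their direction and 15 turned it, those of Notch1, Adam8 and Adam17, whose reported values lie between -0.01 and 0.02. Notch1 turned to 0.0196 with age as a factor, 0.0492 in the 8-week libraries and 0.0211 with the title run, and ranged from -0.109 to 0.0897 with 1 library left out. Adam8 ranged from -0.247 to 0.300 and Adam17 from -0.0735 to 0.167 with 1 library left out, and without titles S3 to S5 they were -0.319 and -0.0640. Among 22 other named genes, 375 refitted values kept their direction and their side of the threshold, 15 turned and 2 came to pass. Notch4 was 0.309 by limma-voom and ranged from -0.795 to 0.376 with 1 library left out. Lfng was 0.0249 and Psenen -0.212 in the 8-week libraries, and they ranged from -0.0671 to 0.0470 and from -0.309 to 0.495 with 1 library left out. Kat2a was -0.00425 with age and -0.00472 with the title run, and ranged from -0.00642 to 0.0550 with 1 library left out. Without titles S3 to S5, Neurl3 was 0.0355 and Mbtps1 0.00401. Adam8 and Adam15 had 377 and 329 counts in all libraries together, and wide intervals. Rhbdf1 fell under the low-count filter in 3 of the 18 alternatives, which gave it no value.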
